A study of Mus musculus with 9 samples.

Results

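The meiotic prophase genes are a group of 33 genes whose products start meiosis, hold and align the chromosomes in its prophase, and make and repair the breaks from which crossovers arise. They were chosen by name, and for each gene the probe set annotated to that gene alone with the highest mean over the 9 arrays was used, out of 18194 genes and 45101 probe sets. In all, 32 of the 33 were measured, and Rad21l, a meiotic cohesin subunit, had no probe set listed. No member was left out for a low value, although 5 of the 32 had a mean under 4.82 on the log2 scale, and values below this quartile of the whole table are treated as close to background. Of the 32, 25 are classed here as mainly of the germline and 7 (Ythdc2, Sgo2a, Trip13, Psmc3ip, Mnd1, Brca2 and Mlh3) as also used by dividing somatic cells.

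The arrays held RNA of fetal mouse ovaries before and after grafting, with 2 arrays of ungrafted XX ovaries of 13 dpc (day 0), 1 array each of grafts recovered 4, 7 and 15 days post-transplantation, and 2 arrays each of days 10 and 20. All donors, day 0 included, had been exposed in the womb to busulfan, which was given to the mothers to kill germ cells, and all grafts grew under the kidney capsule of intact adult XY nude mice of the BALB/c strain. The labels give ICR as the donor strain, whereas the study's methods name C57BL/6 and ICR. A graft array pooled approximately 10 grafts and a day 0 array pooled ovaries, from litters and hosts that the labels do not name, so that p-values measure only the spread between pools. The values are log2 intensities without detection calls, and their precision is limited by the small number of arrays.

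In the fetal mouse ovary, oogonia stop dividing and enter meiosis in the days around the stage sampled here, under retinoic acid and other signals that switch on Stra8. The chromosomes then exchange part of their cohesin for meiotic subunits, build a protein axis, break their DNA, pair along the synaptonemal complex and repair the breaks as crossovers, before oocytes arrest and grow. Somatic cells of the ovary divide by mitosis and use the mitotic cohesin subunits instead.

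The tissue was prepared as germ cell-depleted, but germ cell transcripts were measured on it. Ddx4 and Dazl, which encode RNA-binding proteins of germ cells and were picked as defining markers after their values had been seen, stood at 7.37 and 9.61, and at 9.15 and 11.12, on the first and second day 0 array. The median level of 11 germ cell markers was 7.69 and 9.36 on day 0, 5.14 on day 4, 6.40 on day 7, 6.98 and 8.55 on day 10, 8.80 on day 15, and 8.21 and 8.77 on day 20. Of 12 oocyte markers, 9 were called higher on day 10, 8 on day 15 and 10 on day 20 against day 0. A call needed an adjusted p under 0.05 in limma and more than 2-fold, and 3.87%, 2.84% and 6.31% of all genes were called higher. The first day 20 array stood apart, with a median of 11.7 for 10 genes of the kidney proximal tubule. That median was 6.54 or lower on the other 8 arrays. Single genes of this list were higher there. Miox, for example, stood at 7.96 and 10.19 on day 10, 10.00 on day 15 and 9.86 on the second day 20 array. In RNA of a whole graft, fewer cells of a type and less RNA per cell cannot be told apart.

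**Figure D1:**
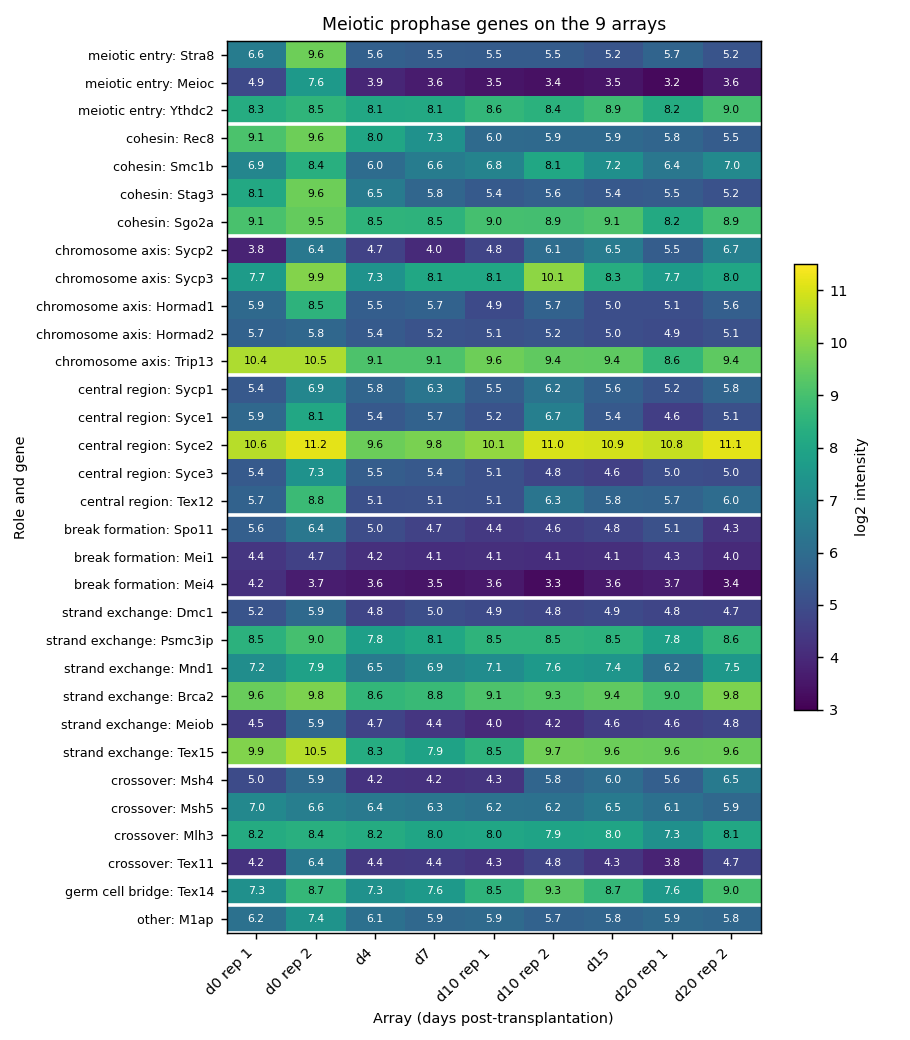
Log2 intensity of the 32 measured meiotic prophase genes (rows, by role) on the 9 arrays (columns, by days post-transplantation and replicate), with each value printed in its cell and the colour scale in log2 units. Colours are to be read along a row, since levels of different probe sets are not comparable. The second day 0 array holds the highest value of 24 rows.

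Rec8 and Stag3, which encode meiotic subunits of cohesin, the ring that holds sister chromatids together, were the members called lower on days 10, 15 and 20, with Trip13 added on day 20. Rec8 encodes the kleisin that closes the meiotic ring. It stood at 9.09 and 9.63 on the day 0 arrays, 8.04 on day 4, 7.28 on day 7, 5.95 and 5.91 on day 10, 5.89 on day 15, and 5.77 and 5.48 on day 20. Each graft array thus lay below both day 0 arrays, and each array from day 10 onwards below the arrays of days 4 and 7. Stag3, the meiotic subunit that binds to the kleisin, had 8.14 and 9.61 on day 0, 6.52 on day 4, 5.80 on day 7, 5.40 and 5.59 on day 10, 5.38 on day 15, and 5.45 and 5.15 on day 20. Its order was the same, with no overlap between the grafts and day 0.

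In the limma fit over all probe sets, with Benjamini-Hochberg adjustment, a gene was called at an adjusted p under 0.05 and more than 2-fold. Rec8 fell by 2.08 (SE 0.28) on the log2 scale on day 7, by 3.43 (SE 0.23) on day 10, by 3.47 (SE 0.28) on day 15 and by 3.74 (SE 0.23) on day 20, with adjusted p of 0.0333, 0.00422, 0.0091 and 0.00224 in limma. The day 20 change was 13.3-fold, with a 95% interval of -4.31 to -3.16 on the log2 scale. Stag3 fell by 3.38 (SE 0.47) on day 10, 3.50 (SE 0.57) on day 15 and 3.57 (SE 0.47) on day 20, with adjusted p of 0.0213, 0.0436 and 0.0125 in limma. The size of these falls of Stag3 depended on the day 0 array. Without the second it was 2.65 on day 10 and 2.84 on day 20, and without the first 4.12 and 4.30. The day 15 call of Stag3 ended in 6 of 12 alternatives, among them the fit without the second day 0 array. On day 4 the log2 fold changes of Rec8 and Stag3 were -1.32 and -2.36, which did not pass (adjusted p of 0.148 and 0.205 in limma). All these comparisons share the day 0 arrays. Between days 10 and 20 Rec8 differed by -0.31 (95% interval -0.88 to 0.27) and Stag3 by -0.19 (-1.35 to 0.97), and neither passed.

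Smc1b, which encodes the meiotic form of a long coiled-coil cohesin subunit, followed another course. It had 6.89 and 8.37 on day 0, 6.0 on day 4, 6.58 on day 7, 6.80 and 8.06 on day 10, 7.23 on day 15, and 6.37 and 7.00 on day 20. The day 10 arrays spanned nearly the same range as those of day 0. The log2 fold change was -0.21 on day 10 (95% interval -1.75 to 1.34) and -0.95 on day 20 (-2.49 to 0.60), and Smc1b passed in no comparison. Without the first day 0 array the day 10 value was -0.95 and without the second it was 0.54, so that its direction on day 10 was not settled. Sgo2a, which encodes the shugoshin that shields cohesin at centromeres and is also used in mitosis, ranged from 8.16 to 9.50 and was not called either.

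The 8 measured genes of the list of mitotic counterparts include the cohesin genes Smc1a, Smc3, Rad21, Stag1 and Stag2. Smc3 is listed with them although meiotic cohesin shares its product, so that it is not a counterpart of a member. The others are the mitotic shugoshin gene Sgo1 and the mismatch repair genes Msh6 and Pms2. None of the 8 was called in any comparison. At an unadjusted p under 0.05 in limma there were 2 on day 10 and 4 on day 20, where 26.5% and 34.5% of all genes were. Their log2 fold changes lay between -0.68 and 0.28 on day 10 and between -1.04 and 0.10 on day 20.

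**Figure D2:**
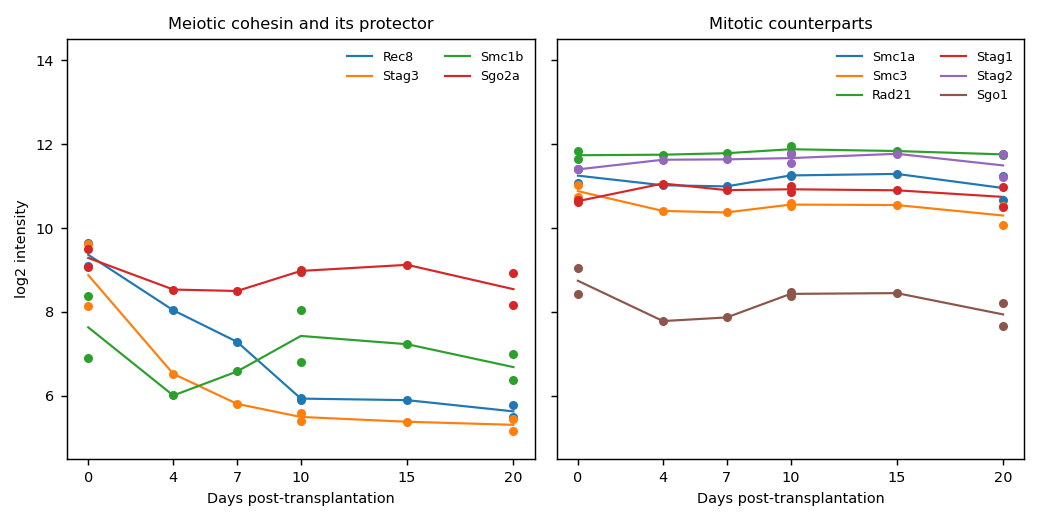
Log2 intensity (vertical axis) of the meiotic cohesin genes Rec8, Stag3 and Smc1b and the shugoshin gene Sgo2a (left), and of mitotic counterparts (right), by days post-transplantation (horizontal axis), with points for arrays and lines through the mean of each day. The right panel includes Smc3, whose product meiotic cohesin shares. Rec8 and Stag3 lie between 5.15 and 5.95 on all arrays from day 10, whereas Smc1b reaches 8.06 on a day 10 array.

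The upstream sequences of the 3 measured meiotic cohesin genes are shown because their levels took different courses. They are the 250 bases before the gene start in RefSeq on GRCm38.p6, read from 5′ to 3′ on the strand of the gene, and capitals mark matches on either strand to any of 4 motifs. TCCCGC is the core of the sites of the E2F family, and CACGTG is the E-box of factors such as Myc and Max. CNCCTCAG has been linked to Stra8 binding, and AGGTCA is the core of the sites of nuclear receptors such as those for retinoic acid.
Rec8 (chr14:55617916-55618165, plus strand): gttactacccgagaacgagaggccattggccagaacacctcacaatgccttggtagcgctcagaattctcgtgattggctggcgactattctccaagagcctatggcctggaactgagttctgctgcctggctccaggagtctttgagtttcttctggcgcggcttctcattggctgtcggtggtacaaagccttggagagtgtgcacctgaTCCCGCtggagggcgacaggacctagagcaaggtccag
Stag3 (chr5:138280259-138280508, plus strand): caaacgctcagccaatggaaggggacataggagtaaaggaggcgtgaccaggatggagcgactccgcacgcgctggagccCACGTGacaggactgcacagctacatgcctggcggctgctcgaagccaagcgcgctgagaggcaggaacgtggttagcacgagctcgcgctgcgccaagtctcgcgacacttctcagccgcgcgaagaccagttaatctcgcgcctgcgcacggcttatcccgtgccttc
Smc1b (chr15:85131958-85132207, minus strand): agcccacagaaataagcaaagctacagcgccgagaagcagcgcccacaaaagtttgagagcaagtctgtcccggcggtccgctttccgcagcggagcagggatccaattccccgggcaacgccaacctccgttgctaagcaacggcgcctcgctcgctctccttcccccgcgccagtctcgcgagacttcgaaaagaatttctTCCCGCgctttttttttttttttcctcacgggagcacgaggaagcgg
Rec8 and Smc1b each hold 1 match to TCCCGC, and Stag3 holds 1 match to CACGTG. Of 28 members with a promoter in the RefSeq table, 13 (46.4%) hold TCCCGC, against 16.9% of all 27025 promoters of this length. CACGTG was found in 5 members (17.9%, against 6.05%) and CNCCTCAG in 3 (10.7%, against 6.39%). No matches to different motifs overlapped in the members. The member promoters hold more CG pairs, with a median of 12 against 6, and the share of the motif counts that goes with this was not tested. These matches are letters in a window and were set against no binding data.

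Stra8 encodes the retinoic acid-responsive factor that opens the meiotic programme. It was high on the second day 0 array alone, and on the first it lay closer to the grafts. It had 6.58 and 9.63 on day 0, 5.60 on day 4, 5.51 on day 7, 5.47 and 5.47 on day 10, 5.23 on day 15, and 5.73 and 5.21 on day 20. Meioc, whose product binds RNA and keeps germ cells in meiotic prophase, had 4.89 and 7.56 on day 0, 3.90 on day 4, 3.64 on day 7, 3.49 and 3.39 on day 10, 3.48 on day 15, and 3.20 and 3.63 on day 20. For both genes all 7 graft arrays lay below both day 0 arrays, and the grafts of Meioc lay under 4.82. The day 20 log2 fold changes were -2.63 (SE 0.93) for Stra8 and -2.81 (SE 0.82) for Meioc, which did not pass (adjusted p of 0.143 and 0.0932 in limma). The day 0 arrays themselves differed by 3.05 for Stra8 and 2.67 for Meioc.

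The size of the falls of Stra8 and Meioc depended on the day 0 array. Without the first day 0 array, Stra8 and Meioc were lower on day 20 by 4.16 and 4.15 on the log2 scale. That fit leaves day 0 with 1 array, so that its spread leaves out the gap between the day 0 arrays. Since the grafts of Meioc lie close to background, the size of its fall is uncertain. Without the second day 0 array the log2 fold changes of Stra8 and Meioc on day 20 were -1.11 and -1.47. Ythdc2, which encodes the RNA helicase that partners with Meioc and is also made in somatic cells, ranged from 8.11 to 9.01 and was not called.

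The upstream sequence of Stra8 is shown in the same way because the gene marks meiotic entry. AGGTCA was added to the search after this sequence had been seen.
Stra8 (chr6:34920698-34920947, plus strand): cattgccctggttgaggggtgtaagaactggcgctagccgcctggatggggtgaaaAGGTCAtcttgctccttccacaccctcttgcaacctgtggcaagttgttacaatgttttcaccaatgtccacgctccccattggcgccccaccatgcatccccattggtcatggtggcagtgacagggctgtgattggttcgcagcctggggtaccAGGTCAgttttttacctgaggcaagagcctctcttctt
It holds 2 matches to AGGTCA and none to the other 3 motifs. AGGTCA was present in 6 of the 28 member promoters (21.4%), against 13.8% of all promoters.

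The day 0 arrays were far apart for the germline members. The second exceeded the first by more than 2-fold for 15 of the 32 members, all of the germline class, and the reverse held for none. Among all genes, 1.29% were more than 2-fold higher and 0.901% more than 2-fold lower on the second array. The median difference was 1.40 on the log2 scale over the 25 germline members and 0.27 over the 7 also used in somatic cells, against 0.07 over all genes. The 11 germ cell markers differed in the same direction, 11 of 11, by 0.49 to 2.74 with a median of 1.74, and 8 of them by more than 2-fold. The 14 proliferation genes differed by a median of 0.31. With 1 array on each side there is no test, and the part of the germ cell content in the difference was not tested. By role, the median difference was largest in the 3 entry genes (2.67), the 5 chromosome axis genes (2.23) and the 5 central region genes (1.91). The second day 0 array held the highest value of all 9 arrays for 24 of 32 members, against 27.4% of all genes.

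**Figure D3:**
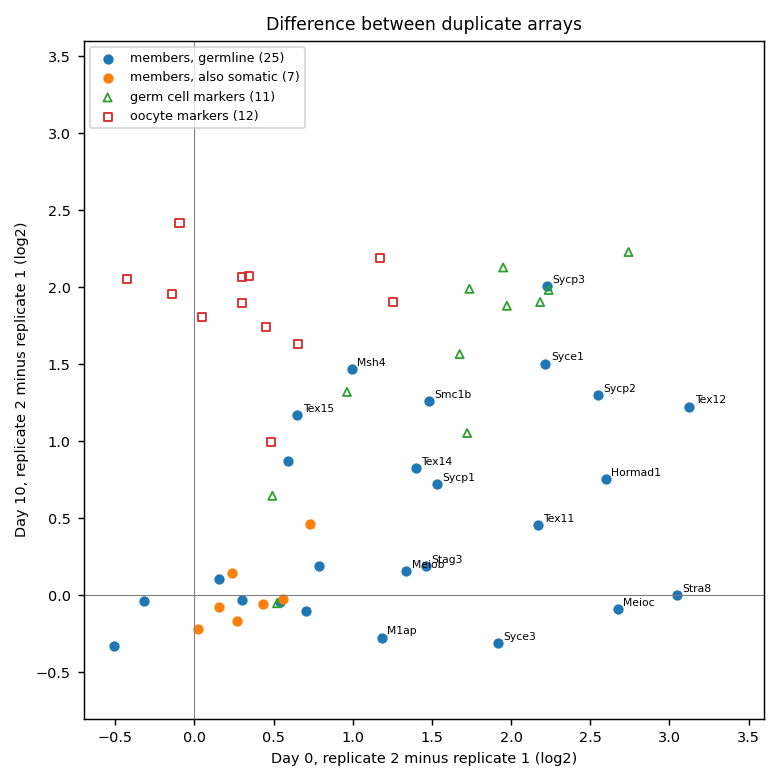
Difference of the second minus the first array (log2) on day 0 (horizontal axis) and on day 10 (vertical axis) for the 32 members, by class, and for 11 germ cell and 12 oocyte markers, with 1 point for a gene and names for members over 1 on either axis. Stra8, Meioc and Syce3 differ by 1.91 or more on day 0 and lie near or below 0 on day 10, where each is low, whereas Sycp3, Syce1, Sycp2, Tex12 and Smc1b exceed 1 on both.

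Of the axis genes, Sycp3 and Sycp2 encode the rods of the lateral element. Sycp3 had 7.68 and 9.91 on day 0, 7.33 on day 4, 8.06 on day 7, 8.06 and 10.07 on day 10, 8.28 on day 15, and 7.67 and 8.03 on day 20. It was thus as high on the second day 10 array as on the second day 0 array. Sycp2 had 3.85 and 6.40 on day 0, 4.66 on day 4, 4.01 on day 7, 4.75 and 6.05 on day 10, 6.55 on day 15, and 5.50 and 6.70 on day 20. Its value on the first day 0 array, close to background, lay below all 7 grafts, and that on the second lay within their range.

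Hormad1, which encodes an axis protein that marks chromosomes not yet paired, had 5.89 and 8.49 on day 0, 5.53 on day 4, 5.66 on day 7, 4.91 and 5.66 on day 10, 5.03 on day 15, and 5.05 and 5.56 on day 20. All grafts lay below both day 0 arrays, and the log2 fold change of -1.89 (SE 0.83) on day 20 did not pass (adjusted p = 0.218 in limma). Its relative Hormad2 ranged from 4.93 to 5.83, with all grafts again below day 0. The day 20 difference of -0.74 (SE 0.16) had an adjusted p of 0.0467 in limma but was under 2-fold.

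Trip13, which encodes the ATPase that strips the HORMA proteins from paired axes and also serves the mitotic checkpoint, was the remaining member called. It had 10.44 and 10.47 on day 0, 9.13 on day 4, 9.12 on day 7, 9.63 and 9.41 on day 10, 9.41 on day 15, and 8.62 and 9.41 on day 20. The fall on day 20 was 1.44 (SE 0.28) on the log2 scale, 2.71-fold (adjusted p = 0.0353 in limma). Without the first day 20 array, which had the high kidney gene median, it was 1.05. Without either day 0 array the call ended (adjusted p of 0.14 and 0.162 in limma). On day 20 all 14 proliferation genes had a log2 fold change below 0, with a median of -1.13, where 62.7% of all genes were below 0. Of the 14, 4 (Top2a, Kif11, Mcm2 and Rrm2) were called lower, against 4.51% of all genes. On the second day 20 array alone, their median difference was -0.57 from the first and -0.95 from the second day 0 array. The part of the proliferation genes in the Trip13 value was not tested.

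The genes of the central region, the zipper between paired axes, were not called in any comparison. Syce3, needed to load the other central elements, had 5.41 and 7.32 on day 0, 5.51 on day 4, 5.37 on day 7, 5.08 and 4.77 on day 10, 4.61 on day 15, and 5.04 and 4.99 on day 20. Syce1, another central element gene, had 5.87 and 8.09 on day 0, 5.39 on day 4, 5.68 on day 7, 5.18 and 6.68 on day 10, 5.38 on day 15, and 4.56 and 5.09 on day 20. For both, the second day 0 array was the highest of the 9, and Syce1 overlapped with the grafts through the second day 10 array.

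Sycp1, which encodes the transverse filament, had 5.37 and 6.90 on day 0, 5.79 on day 4, 6.32 on day 7, 5.51 and 6.23 on day 10, 5.62 on day 15, and 5.20 and 5.79 on day 20. Tex12, which encodes the partner of Syce2 in the central element fibres, had 5.66 and 8.79 on day 0, 5.08 on day 4, 5.11 on day 7, 5.07 and 6.30 on day 10, 5.78 on day 15, and 5.70 and 6.01 on day 20. Syce2 itself ranged from 9.58 on day 4 to 11.17 on the second day 0 array and stood at 10.91 on day 15 and at 10.76 and 11.14 on day 20. Unlike Stra8, all 3 overlapped with day 0 on the later grafts.

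The genes of break formation were low. Mei1 and Mei4, both needed to make the breaks, lay under 4.82 on all 9 arrays, from 4.02 to 4.66 and from 3.26 to 4.18. Spo11, which encodes the enzyme that cuts the DNA, had 5.58 and 6.37 on day 0 and between 4.29 and 5.10 on the 7 grafts, with no overlap. Its log2 fold change was -1.48 (SE 0.37) on day 10 and -1.28 (SE 0.37) on day 20, and it did not pass (adjusted p of 0.0934 and 0.091 in limma). Spo11 lay under 4.82 on 5 arrays, all of them grafts, so that the size of these differences is uncertain.

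Of the strand exchange genes, Dmc1, which encodes the meiotic recombinase, ranged from 4.74 to 5.20 apart from 5.90 on the second day 0 array, and its other probe set had 4.72 and 6.69 on day 0 and 3.81 to 4.57 on the grafts. Neither probe set had a graft above either day 0 array, and the day 20 log2 fold change of -0.80 (SE 0.25) did not pass (adjusted p = 0.115 in limma). The probe set used lay under 4.82 on 4 arrays, all of them grafts, so that the size of this difference is uncertain. Meiob, which encodes a single-strand DNA-binding factor, had 4.51 and 5.85 on day 0, 4.71 on day 4, 4.36 on day 7, 4.03 and 4.18 on day 10, 4.56 on day 15, and 4.61 and 4.79 on day 20, so that all grafts were close to background. Psmc3ip and Mnd1, whose products form the pair that helps the recombinase, ranged from 7.78 to 9.01 and from 6.16 to 7.88. Brca2, which loads recombinases in mitosis too, ranged from 8.63 to 9.83. None of these 3 was called. All 3 were lower on the first day 20 array, which had the high kidney gene median, than on the second. The same held for 14 of 14 proliferation genes and for 10741 of all 18194 genes.

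Tex15, a germ cell factor needed for break repair, took a course with a trough. It had 9.89 and 10.54 on day 0, 8.26 on day 4, 7.89 on day 7, 8.50 and 9.67 on day 10, 9.59 on day 15, and 9.57 and 9.59 on day 20. All grafts lay below day 0, but those of days 15 and 20 lay above those of days 4 and 7. Msh4, which with Msh5 encodes the clamp that stabilises crossover intermediates, had 4.95 and 5.95 on day 0, 4.24 on day 4, 4.22 on day 7, 4.29 and 5.76 on day 10, 6.03 on day 15, and 5.58 and 6.5 on day 20. The log2 fold change of Msh4 on day 20 was 0.59 (SE 0.61, adjusted p = 0.579 in limma), and 0.09 and 1.09 without the first and the second day 0 array. The 2 probe sets of Msh5 disagreed. The one used had 6.96 and 6.64 on day 0 and 5.87 to 6.45 on the grafts, with a log2 fold change of -0.79 (SE 0.19) on day 20 that did not pass (adjusted p = 0.0575 in limma). The other, with nearly the same mean, had 6.34 and 6.63 on day 0 and 5.85 to 6.86 on the grafts, so that no course is given for Msh5.

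Among the other crossover genes, Tex11, of the X chromosome, had 4.25 and 6.42 on day 0, 4.40 on day 4, 4.45 on day 7, 4.30 and 4.75 on day 10, 4.30 on day 15, and 3.83 and 4.72 on day 20. It was above 4.82 on the second day 0 array alone. Mlh3, of the endonuclease that resolves crossovers, ranged from 7.26 on the first day 20 array to 8.38 and was not called. Tex14, which encodes a protein of the bridges between germ cells, had 7.26 and 8.66 on day 0, 7.29 on day 4, 7.57 on day 7, 8.51 and 9.34 on day 10, 8.67 on day 15, and 7.61 and 9.0 on day 20. M1ap, a gene of meiotic progression, had 6.19 and 7.37 on day 0, 6.13 on day 4, 5.87 on day 7, 5.94 and 5.67 on day 10, 5.77 on day 15, and 5.92 and 5.84 on day 20. Tex14 thus reached its highest value on day 10, and M1ap lay below both day 0 arrays on all grafts.

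**Figure D4:**
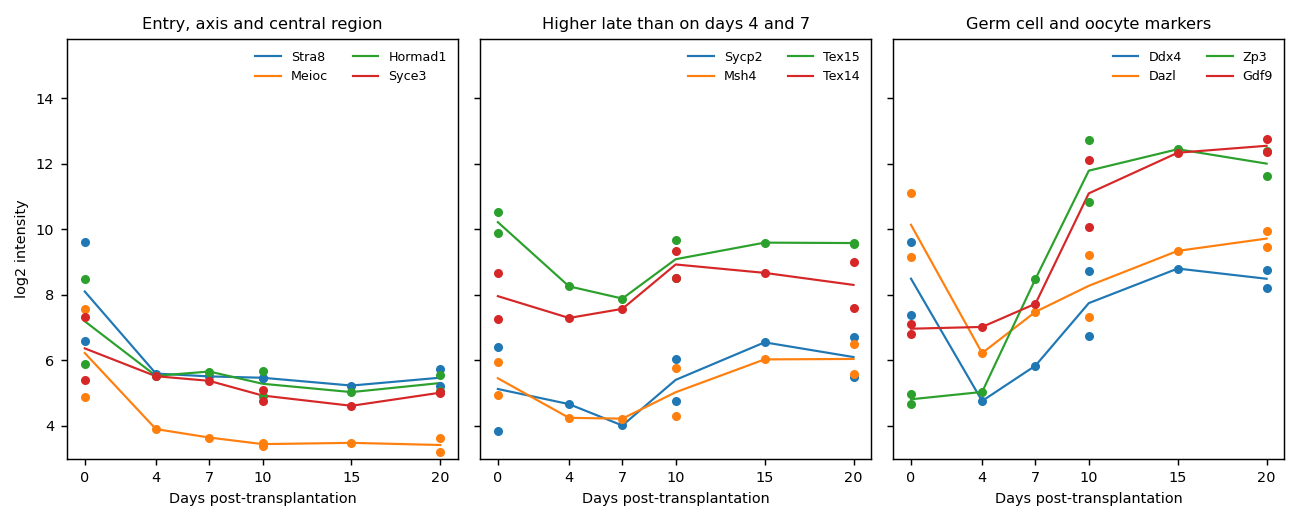
Log2 intensity (vertical axis) by days post-transplantation (horizontal axis) of Stra8, Meioc, Hormad1 and Syce3 (left), of Sycp2, Msh4, Tex15 and Tex14 (middle), and of the germ cell markers Ddx4 and Dazl and the oocyte markers Zp3 and Gdf9 (right), with points for arrays and lines through the mean of each day. In the middle panel all 4 genes lie above their values of days 4 and 7 on the arrays of days 15 and 20, and in the left panel Stra8 and Meioc stay between 3.20 and 5.73 on all grafts.

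The members thus differed in what followed the early grafts. On days 15 and 20 all 3 arrays lay above both arrays of days 4 and 7 for 8 of 32 members (Ythdc2, Sycp2, Syce2, Tex12, Brca2, Tex15, Msh4 and Tex14), against 14.6% of all genes, 8 of 11 germ cell markers and 10 of 12 oocyte markers. Sycp2 and Msh4 lay under 4.82 on days 4 and 7, so that the size of their differences is uncertain. These genes were grouped after their values had been seen, the early days have 1 array each, and no test was made. On day 10 the second array exceeded the first by more than 2-fold for 7 of 32 members (Smc1b, Sycp2, Sycp3, Syce1, Tex12, Tex15 and Msh4), against 1.48% of all genes, and the reverse held for no member and 0.132% of all genes. The same held for 9 of 11 germ cell markers and for 11 of 12 oocyte markers, whose median difference was 1.93. The oocyte markers Zp3, of the egg coat, and Gdf9, a growth factor of the oocyte, stood at 10.84 and 12.74, and at 10.07 and 12.13, on the same arrays. The part of the oocyte content in these differences was not tested. On day 20 the second array was more than 2-fold higher for 3 members (Sycp2, Mnd1 and Tex14), against 3.68% of all genes, and more than 2-fold lower for none, against 4.61%.

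Counted over all members, none was called on day 4 (0.236% of all genes were called lower and 1.21% higher). On day 7, 1 of 32 was called lower (background 0.583%), on day 10, 2 (2.01%), on day 15, 2 (1.25%), and on day 20, 3 (4.51%). With so few calls these counts are read no further than the named genes. None was called higher on days 7, 10, 15 or 20, where 1.87%, 3.87%, 2.84% and 6.31% of all genes were. Between days 20 and 10 no member was called, and 0.0055% of all genes were called higher and 0.0% lower. At an unadjusted p under 0.05 in limma, 7 of 32 members differed from day 0 on day 4 (13.3% of all genes), 8 on day 7 (16.9%), 12 on day 10 (26.5%), 7 on day 15 (23.1%) and 11 on day 20 (34.5%), and none differed between days 20 and 10 (7.04%). On days 15 and 20 these shares are near those of all genes.

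The members' log2 fold changes lay mostly below 0, with 32, 31, 28, 27 and 27 of 32 below 0 in the order of the days, where 58.8%, 64.0%, 63.9%, 60.6% and 62.7% of all genes were. Their medians were -0.97, -0.91, -0.60, -0.57 and -0.77, and those of all genes -0.07, -0.11, -0.13, -0.11 and -0.14. All 7 grafts lay below both day 0 arrays for 13 of 32 members, against 24.0% of all genes, and above both for none, against 12.4%. These comparisons share the day 0 arrays, of which the second carried the higher germ cell transcripts. Without the second day 0 array, 25, 27, 20, 18 and 22 of 32 members were below 0 in the order of the days, with medians of -0.53, -0.35, -0.29, -0.24 and -0.31.

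**Figure D5:**
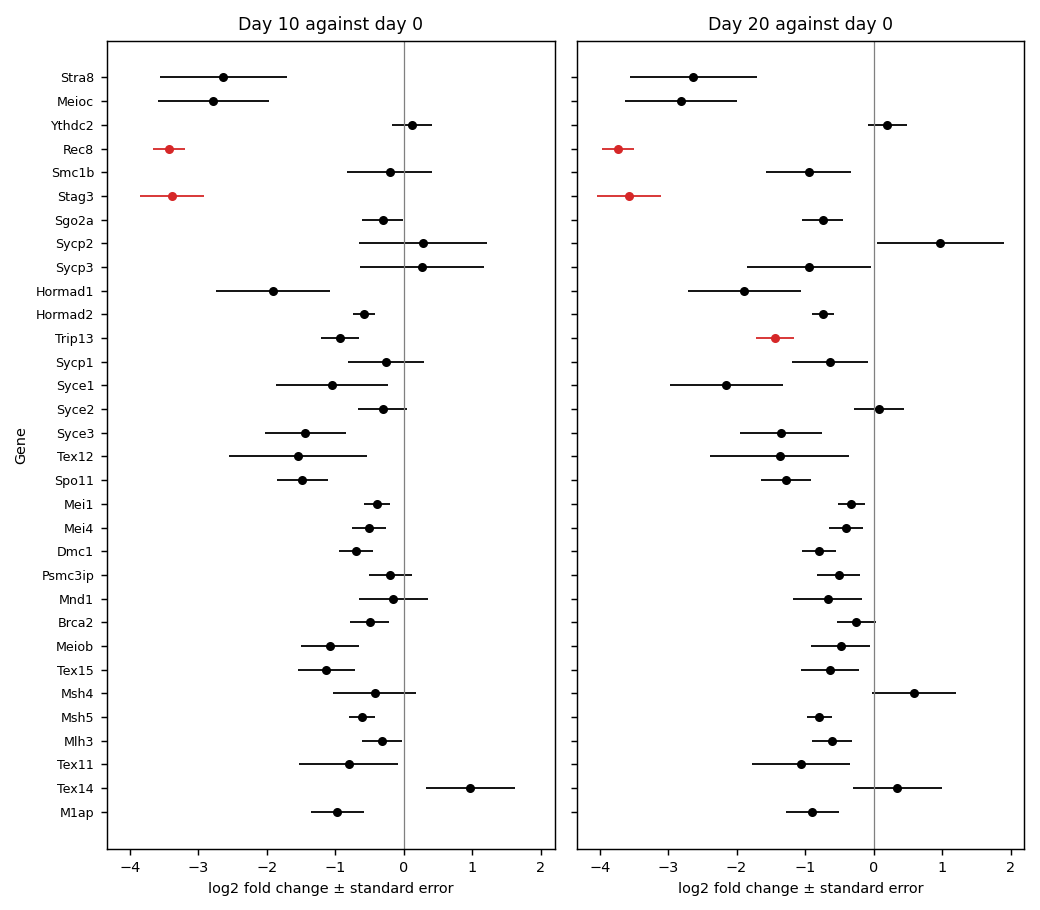
Log2 fold change (horizontal axis) with its standard error (bars) of the 32 members (vertical axis) on day 10 (left) and day 20 (right) against day 0, from the limma fit with 2 arrays for each day, with called members in red. Rec8 and Stag3 are called on both days and Trip13 on day 20.

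Other meiosis genes, from a list of 34 of which 20 were measured, gave 1 call each on days 10 and 20, both lower. They gave none on days 4, 7 and 15. Among all genes, 2.01% were called lower on day 10 and 4.51% on day 20. The gene called was Six6os1, which encodes a further central element protein. It had 6.27 and 7.79 on day 0, 5.75 on day 4, 4.66 on day 7, 3.99 and 3.53 on day 10, 3.59 on day 15, and 3.34 and 3.56 on day 20. Like Rec8 and Stag3, it was lower on each array from day 10 than on days 0, 4 and 7. It fell by 3.27 on day 10 and 3.58 on day 20 on the log2 scale (adjusted p of 0.0275 and 0.0144 in limma), and since the later values are close to background, the size of this fall is uncertain.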

How the data were processed

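RNA was hybridised to 9 Affymetrix whole-genome mouse arrays, on which sets of short probes read each transcript. The authors deposited log2 intensities, made by robust multiarray averaging (background correction, quantile normalization and probe set summary). The software version, and the labelling kit of each array (of 2 in use), are not stated in the labels. Array medians lay between 6.49 and 6.63.

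Probe sets were named through the platform annotation, in which 34958 had 1 gene, 932 several and 9211 none listed. A mean per day was fitted to all 45101 probe sets by lmFit and eBayes (limma 3.58.1, R 4.3.3), with 3 residual and 2.69 prior degrees of freedom, Benjamini-Hochberg adjustment over all probe sets, and thresholds of 0.05 and 2-fold. Days with 1 array took their spread from the duplicates. Background shares count 1 probe set for each gene. Tables, plots and promoter searches used matplotlib 3.10.9, numpy 2.4.6 and pandas 2.3.3 under Python 3.11.15.

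The members and all lists were chosen with earlier results of these data known. All members are accounted for, with values on all arrays for those called or more than 2-fold apart on day 0, and of other lists up to 4 called genes and all mitotic counterparts may be named. Values of Tex15, Msh4, Ddx4 and Dazl were added after they had been seen. The alternatives were an intensity trend, array weights, quantile normalization, median centring, only probe sets above the median, a floor at the 25th percentile, only days 0, 10 and 20, a replicate block, all probe sets of a gene, a fold of 1.5, and each duplicate array left out in turn.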

Additional observations from a re-analysis of the deposited data

How the results depend on the processing

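The falls called for Rec8, Stag3 and Trip13 kept their direction under all alternatives run for them. Uncalled members could turn, with up to 3 of 32 on a day (Sycp2, Syce2 and Tex14 on day 20) without the first day 0 array and up to 8 (such as Smc1b, Sycp1 and Tex12 on day 10) without the second. The fall of Rec8 on day 20 passed under all 16 alternatives (adjusted p in limma of 0.000833 to 0.0246) and that of Stag3 on day 20 under 14 of 15. With low values set to a floor at the 25th percentile, the members called lower were 0 on day 7, 1 on day 10, 0 on day 15 and 1 on day 20, in place of 1, 2, 2 and 3. Rec8, Stag3 and Trip13 lay above this floor on every array. Their log2 fold changes were the same with the floor, and only the adjusted p moved. With only probe sets above the median, 1 was called on day 10 and 1 on day 15, since Stag3 is not among them. Leaving out 1 duplicate array in turn gave 0 to 2 members on day 7, 0 to 5 on day 10, 1 to 4 on day 15 and 2 to 6 on day 20. On day 10 the count was 0 when a day 10 array was left out. Without the first day 0 array, Stra8 and Meioc were added on days 10, 15 and 20. Syce3 was added on days 10 and 20 and Hormad1 on day 20, where Trip13 was lost. The gap between the day 0 arrays had then been taken out of the estimated spread. On day 15 Stag3 was lost without the second day 0 array or any array of days 10 or 20. Without either day 20 array, Trip13 was called on day 15 in its place. Without the second day 20 array, Sgo2a and Mlh3 were added on day 20. For day 7, the call of Rec8 ended when any array of days 0 or 10 was left out, and Trip13 was called there too without either day 20 array. Stag3 on day 15 passed under 6 of 12 alternatives, and Trip13 on day 20 under 10 of 16. The cause was not tested.

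The correlations of the duplicate differences over all probe sets were -0.16 (days 0 and 10), 0.15 (days 0 and 20) and -0.13 (days 10 and 20). They cannot decide whether the replicate numbers pair the arrays. The duplicates of days 0 and 10 also differed in germ cell transcripts, and those of day 20 in kidney genes. With the replicate number as a block, 2 members were called lower on day 10 and 2 on day 20, where Trip13 no longer passed (adjusted p = 0.0566 in limma). With the day 10 numbers crossed, an alternative added after seeing the data, the block gave 2 and 3.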

Other observations

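Of the 20 other meiosis genes measured, 6 had all arrays of days 15 and 20 above those of days 4 and 7. Among all genes the share was 14.6%. Later minus early grafts had a median of 0.11 on the log2 scale, against -0.05 for all genes, and 12 of 20 were above 0. The genes named here were picked after their values had been seen, as high on the later grafts. Terb1, which encodes a protein that ties telomeres to the nuclear envelope in prophase, had 5.75 and 7.20 on day 0, 4.85 on day 4, 5.0 on day 7, 5.55 and 7.26 on day 10, 7.29 on day 15, and 6.71 and 7.63 on day 20. Hsf2bp, a factor that brings Brca2 to meiotic breaks, had 6.12 and 7.95 on day 0, 5.52 on day 4, 5.56 on day 7, 5.47 and 6.90 on day 10, 6.90 on day 15, and 7.31 and 7.27 on day 20. Both had the second day 10 array above the first, in the direction of the oocyte markers. Sycp2l, an oocyte relative of Sycp2, had 4.13 and 3.85 on day 0 and 6.61 on the second day 10 array, and stood at 5.40 and 6.64 on day 20. None of the 3 was called in any comparison.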
